A study of Mus musculus with 2 samples.

Results

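Interferon-stimulated genes are the genes that cells switch on when interferon, a signal of virus infection and inflammation, binds its receptor. Their transcript levels were compared here between the gastrocnemius (GAS) muscle of wild-type (WT) and *Gde5* skKO mice. The 40 genes examined were picked by name as a module of the interferon response, and any array probe that carries a member's symbol or an alias of it was taken. The arrays held 61 probes for 39 of the 40 genes, out of 27555 genes with a probe in all. Xaf1, a pro-apoptotic interferon-induced gene, had no probe under the names searched. None of the 30 members with usable signal was called higher or lower in *Gde5* skKO muscle, where 1.58% of all genes were called higher and 1.73% lower. All 30 had a mean ratio within 1.5-fold of WT, as did 95.9% of all 13589 genes kept. The median log2 ratio of the members was 0.10, against 0.01 over all genes, and it was 0.02 after normexp background correction and loess (all genes 0.00) and 0.01 on array 2 alone (all genes 0.02).

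The mice were males of 15 weeks on a normal diet, 5 of each genotype according to the labels. The study names a C57BL strain for the mice of these arrays. Whether the strain affects the signal of any member was not tested. Gde5, also named Gpcpd1, encodes a glycerophosphodiesterase that splits glycerophosphocholine into choline and glycerol 3-phosphate. In *Gde5* skKO mice exon 11 of Gde5 is flanked by loxP sites, and Cre is driven by the human skeletal actin (HSA) promoter, so that the deletion is meant to occur in muscle fibres and not in the blood, vessel, fat or connective tissue cells that GAS muscle also contains. The WT mice carried the floxed alleles without Cre, according to the methods of the study. On array 1 the WT RNA was labelled with the dye Cy3 and the *Gde5* skKO RNA with Cy5, and array 2 had the dyes exchanged. The sources used here do not state whether the RNA of several mice was combined, or whether the arrays shared RNA. The study examined muscle both after a glucose injection and in the fasted state, and the labels do not tie the arrays to either, so that the feeding state of these mice is not known here. The comparison is between hybridizations and not between mice.

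Type I interferons act through the receptor subunits Ifnar1 and Ifnar2 and the kinases Jak1 and Tyk2, which lead to a complex that holds Stat2 and Irf9 on a DNA element called ISRE in the promoters of the induced genes. Interferon gamma acts through Ifngr1, Ifngr2, Jak1 and Jak2, and leads to a different element, called GAS in that field and written in full below as the gamma-activated site to keep it apart from the muscle. Muscle fibres themselves can respond to interferon, as in dermatomyositis, in which interferon-stimulated proteins accumulate in muscle fibres.

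To show the element that many members share, the ISRE was written as TTTCNNTTTC, where N is any base, and searched on either strand in the 250 bases before the start of each RefSeq transcript. It was present in 978 of 32851 promoters (2.98%) and in 15 of the 39 promoters of members (38.5%). Counted by gene, it was present in 15 of the 31 members with a promoter in the table (48.4%). The matches of 6 members are printed 5′ to 3′ along the gene from the mouse assembly GRCm38.p6, with capitals for the bases of the motif on either strand. They were chosen because these genes span the range of ratios given below, from the lowest member to one of the highest. Isg15 lies on the minus strand at chr4:156200845-156200926, Ifit3 on the plus strand at chr19:34583343-34583446, Rsad2 on the minus strand at chr12:26456533-26456602, Bst2 on the minus strand at chr8:71537557-71537632, Igtp on the plus strand at chr11:58199492-58199555 and Irgm1 on the minus strand at chr11:48871421-48871480.
Isg15: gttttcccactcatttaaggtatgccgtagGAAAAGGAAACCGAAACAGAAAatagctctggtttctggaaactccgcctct
Ifit3: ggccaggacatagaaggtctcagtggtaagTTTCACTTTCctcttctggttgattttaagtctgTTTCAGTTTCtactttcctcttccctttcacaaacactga
Rsad2: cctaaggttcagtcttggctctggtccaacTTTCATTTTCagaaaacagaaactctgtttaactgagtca
Bst2: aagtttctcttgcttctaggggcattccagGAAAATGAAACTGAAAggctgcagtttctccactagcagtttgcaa
Igtp: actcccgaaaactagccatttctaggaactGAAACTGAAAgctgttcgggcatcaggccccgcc
Irgm1: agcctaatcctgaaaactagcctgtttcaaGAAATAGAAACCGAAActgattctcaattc

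In Isg15 there were 3 overlapping matches, from 78 to 57 bases before the start. Ifit3 had 2 separate matches between bases 156 and 113 before the start, and Rsad2 had 1 from base 120 to base 111. Bst2 and Irgm1 each had 2 overlapping matches, and the single match of Igtp lay from 34 to 25 bases before the start. A match is a description of the letters and not evidence of binding. The gamma-activated site, TTCNNNGAA, was present in 7.02% of all promoters and in 6 of the 39 promoters of members (15.4%). Counted by gene, it was present in 6 of the 31 members (19.4%), among them Bst2 and Igtp. The letters of both elements overlapped in 18 promoters of the table, 1 of them of a member.

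A spot counted as detected when the scanner software marked it as well above background, and a probe was used when it was detected in at least 1 channel of each array. A gene with several such probes was represented by the brightest. The unit of a ratio is the log2 of *Gde5* skKO signal over WT signal at the same spot, so that 1 is a 2-fold higher signal in *Gde5* skKO muscle. By this filter 30 members were kept, and 27 of them were detected in both channels of each array. Among these 27 the processed signal in WT muscle ran from 69.9 to 4389.6 arbitrary units on array 1 and from 80.3 to 4685 on array 2. In *Gde5* skKO muscle the range was 79.9 to 4653 on array 1 and 86.2 to 4597 on array 2. The ranges of the genotypes almost coincided, as the plot of the signals shows.

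**Figure D1:**
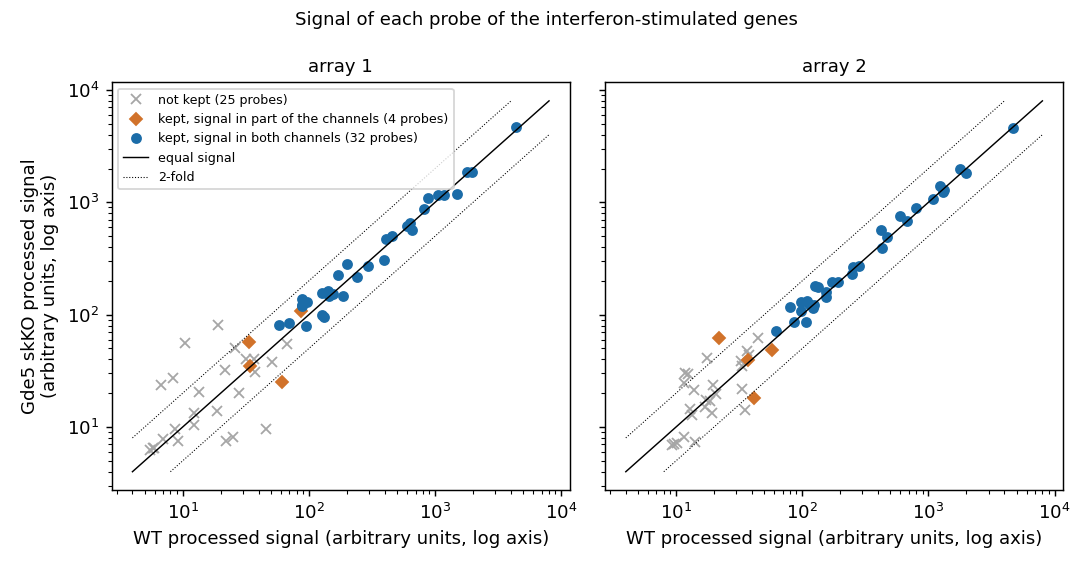
Processed signal of each of the 61 probes of the interferon-stimulated genes in WT (x axis) and *Gde5* skKO muscle (y axis), in arbitrary units on log axes, on array 1 and array 2; the solid line is equal signal and the dotted lines are 2-fold. The 32 probes with signal in both channels lie within 2-fold of equality on both arrays, and the probes outside those lines are dim.

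The 9 members with a probe that were not kept were Ifit1, Ifit2, Ifi44, Mx1, Mx2, Oas1a, Oas1g, Oas3 and Oasl1. These include the antiviral GTPases Mx1 and Mx2, the Ifit proteins that bind foreign RNA, and most of the 2′-5′-oligoadenylate synthetases. Ifit2, Ifi44, Mx1 and Oas1g were detected in no channel of either array, and the other 5 were detected on array 1 alone. Both Mx1 probes had floor values in every channel, so their ratio of 0 is not a measurement. The single probe of Oas1a, which makes 2′-5′-oligoadenylates that activate RNase L, had signals of 10.5 in WT and 56.0 in *Gde5* skKO muscle on array 1, and of 20.8 and 19.6 on array 2. Its difference on array 1 was thus not seen on array 2, where neither channel was detected. For the 9 genes neither a change nor its absence could be measured.

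A gene was called when the p-value of Feature Extraction, the scanner software, was under 0.05 on both arrays with the ratio in the same direction. Of the 30 members, 0 were called higher and 0 lower, where 1.58% of all 13589 genes were called higher and 1.73% lower. The moderated test of limma, on ratios after normexp background correction and loess, also gave 0 members at an unadjusted p under 0.05 in each direction, where 4.23% of all genes were higher and 4.26% lower. After Benjamini-Hochberg adjustment over all genes the limma count was again 0 (0.272% of all genes higher and 0.500% lower), and the lowest adjusted p of limma among the members was 0.783. An unpaired t-test on the channel values gave 0 members as well (3.57% of all genes higher and 3.24% lower, unadjusted). The methods of the study name Student's t-test for comparing 2 groups, but not for the arrays. This t-test ignores that both channels share a spot. After Benjamini-Hochberg adjustment it called 0 of all 13589 genes in either direction, so it could not call a member. Each member probe had 1 spot on each array. The Feature Extraction p rests on the software's error model for that spot, and limma and the t-test rest on the spread between hybridizations. None of them measures the spread between mice.

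The mean log2 ratios of the 30 members ran from -0.25 to 0.38. On array 1 alone their median was 0.07 and on array 2 alone it was 0.01, against 0.01 and 0.02 over all genes. There were 12 members above 0 on both arrays (40% against 29.2% of all genes), 6 below 0 on both (20% against 25.3%) and 12 with opposite signs (40% against 45.6%). The 95% interval of the mean ratio from the error model of Feature Extraction lay within 1.5-fold for 23 of the 30 and within 2-fold for all 30. Among all 13589 genes it lay within 1.5-fold for 9837 and within 2-fold for 12883. This interval leaves out the difference between the arrays, so that Dhx58, at -1.28 and 1.52, had one of -0.60 to 0.84. Limma's 95% intervals reached from -0.40 to 0.40 over the 30 members and lay within 1.5-fold for all of them, on a scale that draws the ratios of dim probes towards 0. With array 1 alone Irf9 and Oasl2 were higher and Dhx58 lower, where 6.83% of all genes were higher and 5.33% lower. With array 2 alone Dhx58, Rsad2 and Rtp4 were higher and 0 members lower, where the shares were 7.17% and 6.73%. For comparison, the smallest mean ratio in size among all 450 called genes was 0.42 and the median size was 0.70, both above the highest member. Larger ratios pass the threshold more easily, so this gap follows largely from the call rule and is not separate evidence about the members.

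**Figure D2:**
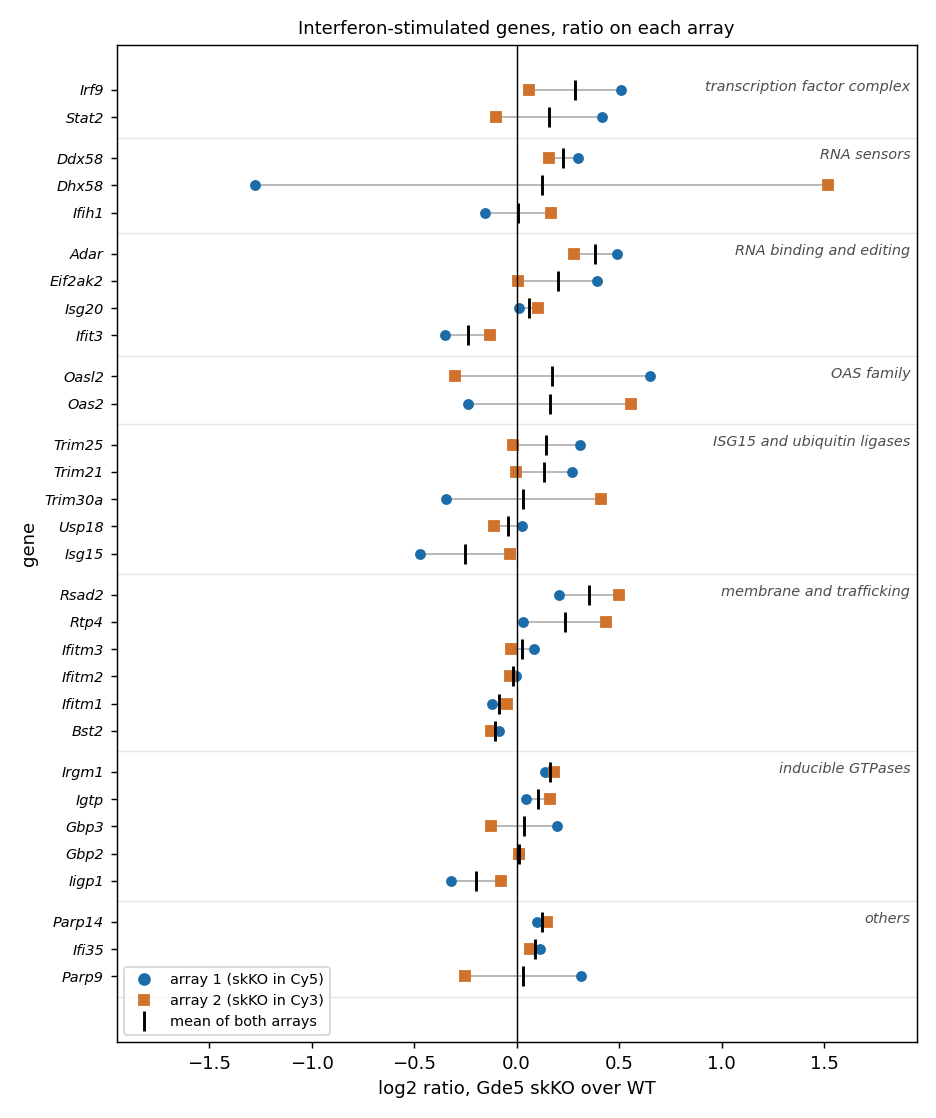
Log2 ratio of *Gde5* skKO over WT (x axis) on array 1 (circles) and array 2 (squares) and their mean (bars) for the 30 interferon-stimulated genes kept, grouped by role; a grey line joins the arrays. The means lie between -0.25 and 0.38, and the widest gap between the arrays is that of Dhx58.

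Irf9 and Stat2 are the DNA-binding and activating parts of the complex that recognises the ISRE. The Irf9 signal was 200.2 in WT and 285 in *Gde5* skKO muscle on array 1, and 255 and 265 on array 2. Its log2 ratio was therefore 0.51 on array 1 and 0.06 on array 2, with a mean of 0.28 ± 0.15 (error of the mean from Feature Extraction, as in all such values here). The array 1 ratio passed the threshold of Feature Extraction and the array 2 ratio did not. Stat2 had ratios of 0.42 and -0.10, of opposite sign.

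The 3 RNA sensors of the list, Ddx58 (RIG-I), Ifih1 (MDA5) and Dhx58 (LGP2), detect viral RNA in the cytoplasm. Ddx58 had signals of 128 and 157 in WT and *Gde5* skKO muscle on array 1 and of 112 and 125 on array 2, which are log2 ratios of 0.30 and 0.16 with a mean of 0.23 ± 0.21. A dimmer Ddx58 probe had ratios of 0.77 and -1.20, opposite between the arrays, and the mean over all probes of the gene was 0.01. Ifih1 had ratios of -0.15 and 0.17 at its brightest probe, and its other probe was detected on neither array.

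Dhx58 was the member with the largest difference between the arrays. Its probe at chr11:100511047-100511106 of the mouse assembly mm8 read 61.0 in WT and 25.2 in *Gde5* skKO muscle on array 1, and 21.8 in WT and 62.5 in *Gde5* skKO muscle on array 2. The Cy3 channel was the bright one on both arrays, whichever genotype it held. The log2 ratios of -1.28 and 1.52 each passed the threshold, in the dye direction and not in that of the genotypes. Over all genes, 1.59% were called in the dye direction. The signal was detected in the Cy3 channel alone, and among the 27 members with signal in both channels 0 were called in the dye direction, where the share of all genes with such signal was 0.463%.

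**Figure D3:**
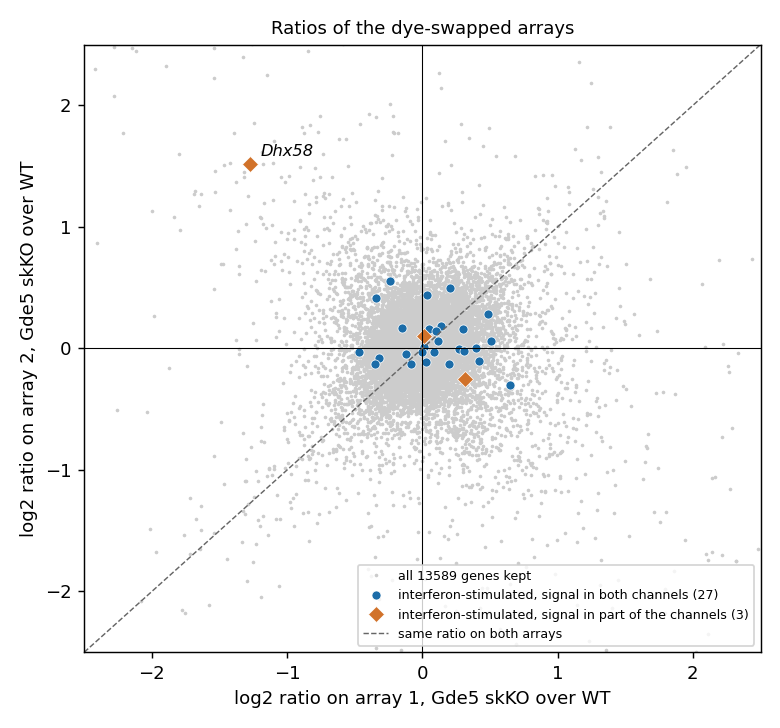
Log2 ratio of *Gde5* skKO over WT on array 1 (x axis) against array 2 (y axis) for all 13589 genes kept (grey, 40 of them outside the axes) and for the interferon-stimulated genes (circles with signal in both channels, diamonds with signal in part of them). The members crowd around the origin, and Dhx58 sits at -1.28 and 1.52, far from the dashed line of equal ratios.

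Among the proteins that bind, edit or cut RNA, Adar, which converts adenosine to inosine in double-stranded RNA, had the highest mean of all members. The Adar signal was 87.7 in WT and 123 in *Gde5* skKO muscle on array 1, and 108 and 131 on array 2. The *Gde5* skKO channel was thus the brighter one on both arrays, with log2 ratios of 0.49 and 0.28 and a mean of 0.38 ± 0.18. Neither ratio passed the threshold of Feature Extraction, and after normexp and loess the mean was 0.04. A second Adar probe read 19.1 and 81.0 on array 1 but 19.4 and 13.4 on array 2, and was detected in a single channel of array 1. Eif2ak2 (PKR), the kinase that halts translation on double-stranded RNA, had ratios of 0.39 and 0.01. Isg20, an exonuclease, had ratios of 0.01 and 0.10 at low signal. A second Isg20 probe, detected in a single channel of array 1, had 0.97 and 0.20.

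Ifit3, of the same family as Ifit1 and Ifit2, was among the lowest members. Its signal was 392 in WT and 308 in *Gde5* skKO muscle on array 1, and 249.97 and 229 on array 2. The WT channel was brighter on both arrays, with log2 ratios of -0.35 and -0.13 and a mean of -0.24 ± 0.16, and neither array passed the threshold.

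Of the oligoadenylate synthetase family, Oas2 and Oasl2 were kept, and both turned with the array. Oasl2 had ratios of 0.65, past the threshold, and -0.30, and Oas2 had ratios of -0.24 and 0.56. Both Oas3 probes were also below 0 on array 1 and above 0 on array 2, with -2.23 and 1.24 at the first and -0.43 and 1.36 at the second, which gave means of -0.50 and 0.47. The first Oas3 probe was detected in WT on array 1 alone and the second on neither array. A second Oas2 probe was detected on neither array and had floor values in 1 channel of each, so its mean of -0.81 is not a measurement.

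Isg15, the ubiquitin-like protein that is joined to other proteins during the interferon response, had the lowest mean of the 30 members. Its signal was 131 in WT and 94.7 in *Gde5* skKO muscle on array 1, and 124 and 121 on array 2. The log2 ratios were -0.47 and -0.03, so that the difference came almost wholly from array 1, where it missed the threshold, and the mean was -0.25 ± 0.20. The probe is annotated on mm8 at chr17:45870420-45870479, whereas RefSeq places the gene on chromosome 4, so its identity rests on the name and accession given by the array. Usp18, the protease that removes Isg15 from its targets and dampens the receptor, had ratios of 0.02 and -0.11. The ubiquitin ligases Trim21 (0.27 and 0.00) and Trim25 (0.31 and -0.02) were above 0 on array 1 and at about 0 on array 2. A second Trim25 probe, detected in both channels of each array, had 0.42 and 0.14. Both probes of Trim30a went opposite ways, with -0.35 and 0.41 at the brighter and -0.36 and 0.42 at the dimmer.

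Of the 8 membrane and trafficking proteins on the list 6 were kept. Rsad2 (viperin), an enzyme at the endoplasmic reticulum that blocks the replication of several viruses, had signals of 142 in WT and 164 in *Gde5* skKO muscle on array 1, and of 126 and 178 on array 2. *Gde5* skKO muscle was brighter on both arrays, with log2 ratios of 0.21 and 0.50, the second past the threshold, and a mean of 0.35 ± 0.16. The other Rsad2 probes, detected on array 1 alone, had means of -0.52 and 0.85, in opposite directions. Adar and Rsad2 were the 2 of 30 members (6.67%) whose 95% interval from the Feature Extraction error lay above 0 (0.04 to 0.73 and 0.03 to 0.67), where 8.16% of all genes had such an interval, and 0 members had one below 0 (6.49% of all genes). Limma's intervals for these genes included 0.

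Rtp4, a chaperone of receptor trafficking, had signals of 635 in WT and 648 in *Gde5* skKO muscle on array 1, and of 421 and 569 on array 2. Its log2 ratios of 0.03 and 0.44 showed a difference on array 2 only, where it passed the threshold, with a mean of 0.23 ± 0.15. Bst2 (tetherin), which holds budding virus at the cell surface, was nearly level, at 1965 in WT and 1854 in *Gde5* skKO muscle on array 1, and at 1988 and 1821 on array 2. Its ratios of -0.08 and -0.13 had a mean of -0.11 ± 0.14. The Ifitm proteins, which hinder the fusion of virus with endosomes, were as level. Ifitm1 had ratios of -0.12 and -0.05 with a mean of -0.08 ± 0.16, Ifitm3 had 0.08 and -0.03, and the probes of Ifitm2 had means of -0.02 and 0.01. The second Ifitm2 probe is annotated on mm8 at chr7:46700586-46700645, on the other strand and far from the first at chr7:140806333-140806392. Its identity rests on the name and accession given by the array.

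The inducible GTPases act on vacuoles that hold bacteria and parasites and respond mainly to interferon gamma. Iigp1 had signals of 1480.0 in WT and 1187 in *Gde5* skKO muscle on array 1, and of 1300.1 and 1234 on array 2. Its log2 ratios of -0.32 and -0.08 were both below 0, with a mean of -0.20 ± 0.15, and limma gave it the lowest p of the 30 members (adjusted p = 0.783). Igtp had ratios of 0.05 and 0.16 and the brightest Irgm1 probe of 0.14 and 0.18, above 0 on both arrays. A second Irgm1 probe, detected in both channels of each array, had -0.23 and 0.35, opposite between the arrays, and the dimmest, detected on neither array, had a mean of -0.21. Gbp2 had 0.01 on each array, the closest agreement among the 30 members, and Gbp3 had 0.20 and -0.12. The remaining members were Ifi35 (0.12 and 0.06), Parp14 (0.10 and 0.15) and Parp9 (0.31 and -0.25), the latter 2 being ADP-ribosyltransferases of the interferon response. A second Parp14 probe, detected in both channels of each array, had 0.48 and 0.19.

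The genes upstream of the members were examined from a separate list of 34 ligands, receptors, kinases, inhibitors and sensors, of which 32 had a probe and 20 were kept. Feature Extraction called 0 of the 20 (1.58% of all genes higher and 1.73% lower), and limma gave 0 at an unadjusted p under 0.05. Of 7 interferon genes with a probe only Ifna1 was kept, with ratios of 0.49 and -0.39, opposite between the arrays. The receptor for type I interferon had ratios of 0.15 and 0.20 for Ifnar1 and of 0.36 and 0.11 for Ifnar2. The subunits of the interferon gamma receptor lay on the other side of 0, with -0.09 and -0.20 for Ifngr1 and -0.21 and -0.21 for Ifngr2. Il10rb, a subunit of the receptor for interferon lambda and for interleukins, had -0.13 and -0.22, and its partner Ifnlr1 was not kept. At its brightest probe each receptor subunit kept thus had the same sign on both arrays, with none past the threshold on either. A second Ifngr2 probe, detected in both channels of each array, had -0.18 and 0.27, opposite between the arrays. Among the kinases, Jak1 had 0.07 and 0.21, Jak2 had -0.22 and 0.00, and Tyk2 had -0.19 and 0.10.

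A further 30 genes that interferon is known to induce were listed, 26 of which were kept. Their median of 0.09 was close to the 0.10 of the members, and 0 were called higher (1.58% of all genes) and 1 lower (1.73%). The called gene was Ifi27l2a, which encodes a small interferon-inducible protein. Its signal was 581 in WT and 416 in *Gde5* skKO muscle on array 1, and 619.6 and 404 on array 2. The lower signal in *Gde5* skKO muscle was seen on both arrays, with log2 ratios of -0.48 and -0.62 and a mean of -0.55 ± 0.15. Its second probe had -0.65 and -0.54, and after normexp and loess the brightest probe had a mean of -0.32, which passed in limma at an unadjusted p under 0.05 but not after adjustment (limma adjusted p = 0.432).

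The direction was not shared by the neighbouring Ifi27, whose brightest probe, at chr12:103841193-103841252 of mm8, had ratios of 0.15 and 0.17. The array names that probe D12Ertd647e, and gives the name Ifi27 to both Ifi27l2a probes. It gives the same name to a probe at chr12:103856768-103856827, which had -0.59 and -0.46. Which gene of the family this last probe reads could not be settled. Tor3a, an ATPase of the endoplasmic reticulum, was the other gene of this list under an unadjusted limma p of 0.05 (limma adjusted p = 0.513), with ratios of 0.49 and 0.28, of which the array 2 ratio did not pass in Feature Extraction.

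**Figure D4:**
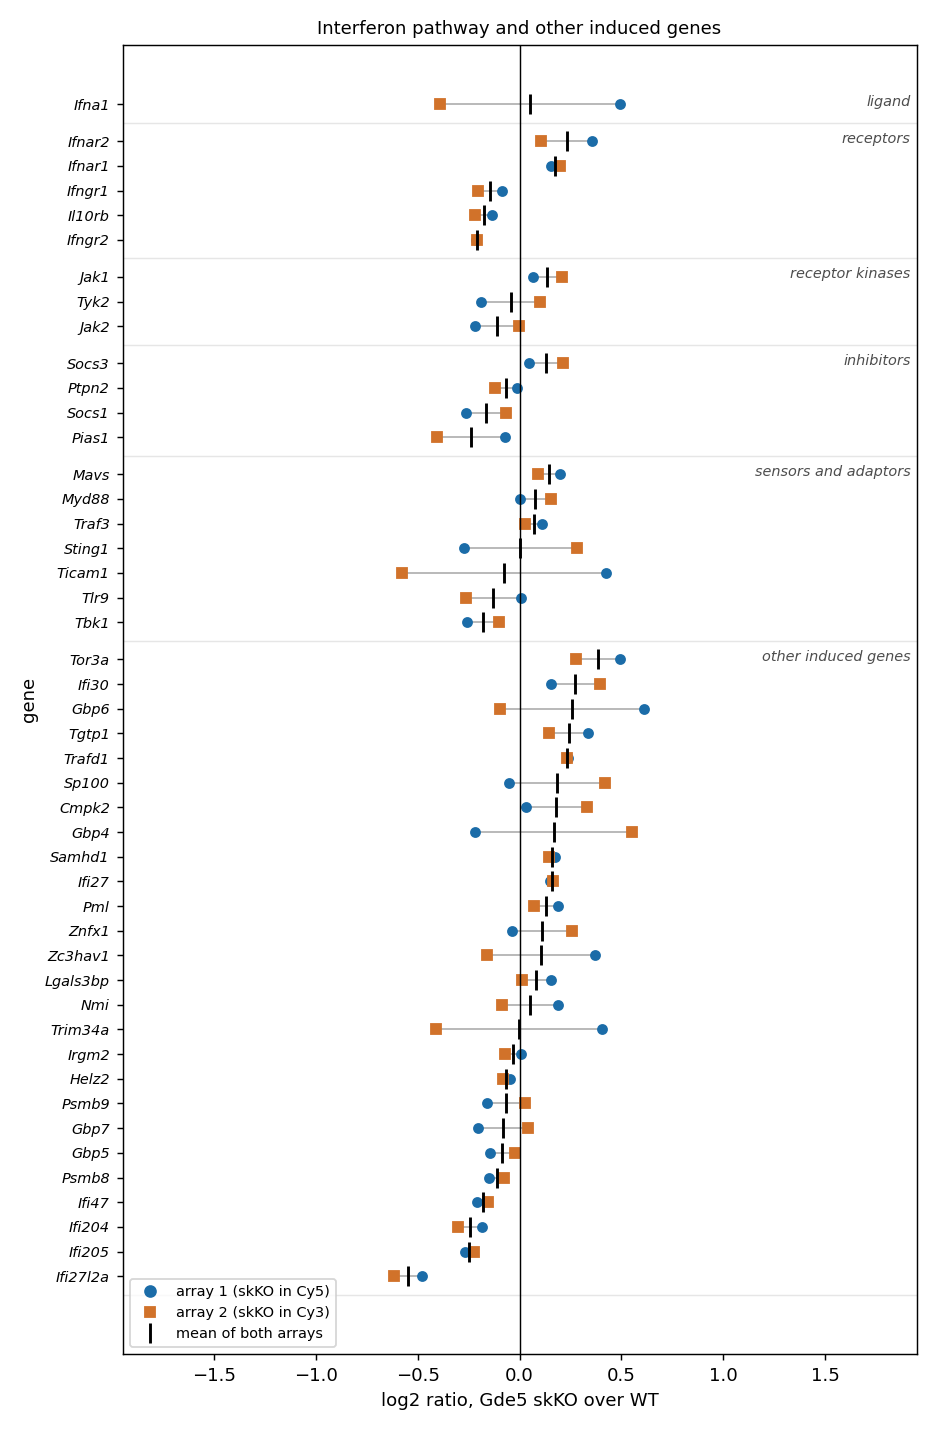
Log2 ratio of *Gde5* skKO over WT (x axis) on array 1 (circles) and array 2 (squares) and their mean (bars) for the 20 pathway genes and the 26 other interferon-induced genes kept, grouped by role. Ifi27l2a, at the foot, has the lowest mean, -0.55, with both arrays below 0.

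The ratios were also set against the promoter letters. Of the genes kept, 271 had an ISRE match upstream and 9103 had a promoter in the table without a match. The median mean ratio was -0.01 with the match and 0.01 without it. With the match 3 genes were called higher (1.11%) and 6 lower (2.21%), and without it the shares were 1.66% and 1.78%. Among the members, the 11 kept with a match had a median of 0.03 and the 12 kept without it a median of 0.14. The members with printed matches, from Isg15 at -0.25 to Rsad2 at 0.35, were chosen to span the range. Their spread is therefore no result about the match.

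**Figure D5:**
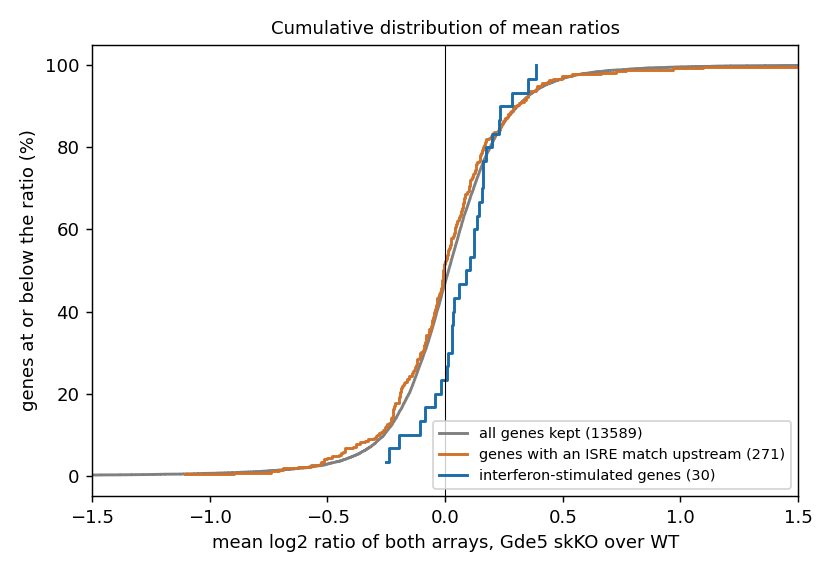
Cumulative share of genes (y axis, %) at or below each mean log2 ratio of *Gde5* skKO over WT (x axis) for all 13589 genes kept (33 of them outside the axis), the 271 with an ISRE match upstream and the 30 interferon-stimulated genes. The members start at -0.25 and end at 0.38, with a median of 0.10, whereas the curve of the genes with a match follows that of all genes, with medians of -0.01 and 0.01.

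GAS muscle is a mixture of cells, and fewer cells of a type cannot be told apart from less RNA per cell. All 7 muscle fibre markers, Acta1 and Ckm among them, were kept and none was called. Of 15 leukocyte markers, cells that carry many interferon-stimulated transcripts, 7 were kept, 0 were called and the median was -0.11, and Ptprc (CD45), carried by all leukocytes, had ratios of -0.38 and 0.18. Their summed signal was 8787 in WT and 8101 in *Gde5* skKO muscle on array 1, and 8762 and 7054 on array 2. Of 7 endothelial markers Kdr was called higher, where 1.58% of all genes were. Their median was 0.09, with 4 above 0 on both arrays and 2, Cdh5 and Tek, below 0 on both. Of 6 fat cell markers kept 5 were called lower, with a median of -0.77, where 1.73% of all genes were. Fabp4, the brightest fat cell marker, was not called, with ratios of 0.13 and -0.02. The part of these shifts in the ratios of the interferon genes was not tested. As a check of the labels, 3 of the 4 probes of Gde5 were called lower in *Gde5* skKO muscle, with mean ratios of -2.93 or lower, and the fourth had -0.26.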

How the data were processed

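Total RNA of GAS muscle was hybridized to 2 dye-swapped Agilent 44K whole mouse genome arrays on 1 slide. The authors used Agilent Feature Extraction, version 9.5.3.1 by the file headers, to turn images into values. For every spot their deposited files hold the log10 of red (Cy5) over green (Cy3) signal, with background and dye effects removed. They also hold a p-value from the software's error model and the intensity in each channel, both as deposited. A deposited table of the series has the same log10 values, not turned for the swap. Here ratios were converted to log2, turned by the dyes in the labels, and averaged where a probe had several spots, with control spots and spots with outlier marks left out. No member spot was left out or saturated. Probes were named through RefSeq by accession, symbol or synonym, and all 61 member probes matched their gene. Probe sequences were not used here, so signal shared by similar genes of a family was not checked.

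Genes were called at a Feature Extraction p under 0.05 on both arrays in the same direction, using the brightest probe among those detected above background in at least 1 channel of each array. The number of arrays limits the precision. Values are given for members called, for members whose probes differ in direction, and for the 5 highest and 5 lowest with signal in both channels, and the others in brief or by range. A gene of the pathway list is not reported here. The members, lists and this rule were chosen with earlier results of these data known. Alternatives were limma 3.58.1 (R 4.3.3) with normexp (offset 50) and loess, loess without background correction, the series table and all probes. Further ones were other filters and thresholds, each array alone, limma's moderated test and an unpaired t-test of the channel values. The steps were tested on simulated data and run in Python 3.11.15 with pandas 2.3.3, numpy 2.4.6, matplotlib 3.10.9 and scipy 1.17.1. Promoters are those of RefSeq on GRCm38.p6, and probes are placed on mm8 by the annotation in the array files.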

Additional observations from a re-analysis of the deposited data

How the results depend on the processing

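All settings that use both arrays again gave 0 members higher and 0 lower, but several could give nothing else. Normexp and loess, loess without background correction and the series table changed the ratios and kept the Feature Extraction p. Only Dhx58 had p under 0.05 on both arrays, so no other member could be called there. The stricter threshold of 0.01 could only remove calls, and requiring both channels only dropped members. Keeping debris spots changed no member. No member mean reached 1 in size, a cutoff at which 0.434% of all genes were called higher and 0.589% lower. The count was also 0 with the mean over probes (1.41% of all genes in each direction) and without the filter on dim probes (0.788% and 0.911%). Limma's test and the t-test gave 0 as well. By a single array alone, 2 to 3 members were higher (Irf9 and Oasl2 on array 1; Dhx58, Rsad2 and Rtp4 on array 2) and 0 to 1 lower (Dhx58 on array 1). The dye-direction count fell to 0 with signal required in both channels. The members' median of 0.10 became 0.0220 with normexp and loess and 0.0226 with loess alone, where the median of all genes was 0.00 for each, and ranged from 0.00904 to 0.0656 by single array. The cause was not tested. Of 207 values of single members under the settings that keep both arrays 8 changed sign, in 6 members, whose means were at most 0.161 in size, and 12 members had opposite signs on the arrays.

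Every ratio already pairs the genotypes within an array. No paired analysis was possible because, beyond these ratios, no samples share an array number. The slide could not be used as a block, since both arrays lie on 1 slide. Low signal limits 9 members, and 2 hybridizations give no spread between mice.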
